A study of Mus musculus with 44 samples.

Results

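Open chromatin was compared between Polg(D181A) and wild-type (WT) neurons of the paraventricular thalamic nucleus (PVT) in 4 of the 44 libraries of the series, 2 of each genotype, over all 89792 peaks of a shared merged peak set. Every peak was a member, so no measured value chose the members. All 4 libraries came from adult mice, from nuclei sorted on NeuN, a nuclear protein of neurons. The WT libraries carry the strain labels C57BL/7 and C57BL/8 and the Polg libraries C57BL/9 and C57BL/10, each given here as written. The labels name no treatment and do not say whether the 2 libraries of a genotype came from separate animals or from pools. The p-values therefore rest on the spread between these libraries, partly shared over peaks by the test, and that spread may be technical. As background from general knowledge of the line, not from the labels, the mutant polymerase is made from a transgene under the promoter of Camk2a, which is active in excitatory forebrain neurons, and the mice keep their own Polg genes. Reads from a transgene and from the mouse's own copy of the same sequence cannot be told apart in these counts.

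ATAC-seq uses a transposase that cuts where DNA is free of nucleosomes, so that the count over a peak follows how often that stretch is accessible among the nuclei. Gene starts and enhancers are the usual open sites, and acetylation of histone H3 at lysine 27 (H3K27ac) marks the active ones. The PVT is a midline thalamic nucleus of glutamatergic neurons that is studied for arousal, stress and reward. Polg is the catalytic subunit of the polymerase that copies mitochondrial DNA, and the D181A change lies in the part that removes misincorporated bases. In bulk nuclei, fewer cells of a type and less open chromatin per cell cannot be told apart.

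Total counts over peaks were 7474552 and 2932270 in the WT libraries and 4356827 and 8040451 in the Polg libraries. A set of 17 very high peaks took 14.4% and 28.9% of the WT counts and 29.3% and 15.6% of the Polg counts, so the shallower library of each genotype also spent more of its counts there. Outside them, promoter peaks held 36.5% and 34.9% of WT counts and 36.6% and 35.1% of Polg counts. The exact permutation test gave p = 0.667 for that share, and with 2 libraries against 2 it cannot go below 0.333. Rank correlations of counts over peaks, given as a description, were 0.75 between the WT libraries, 0.632 between the Polg libraries and 0.573 to 0.707 between genotypes. The WT pair was above every pair of mixed genotype, and the Polg pair lay inside their range.

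The neuronal label was checked against gene lists. All 12 pan-neuronal genes had a peak in or within 5000 bp of the gene, and 20 of 21 genes of the PVT and midline thalamus did. Slc17a6, the vesicular glutamate transporter of thalamic neurons, had promoter CPM (counts scaled to a common library depth) of 11.1 and 7.41 in WT and 15.2 and 12.6 in Polg. Tcf7l2, a transcription factor of the thalamus, had promoter CPM of 19.2 and 21.9 in WT and 17.05 and 16.3 in Polg. The genes Aqp4 and Gja1 of astrocytes, Mog, Mag and Sox10 of oligodendrocytes and Aif1, Tmem119 and C1qb of microglia had no peak. A peak was nevertheless present for 8 of 10 astrocyte, 8 of 11 oligodendrocyte, 5 of 8 microglial and 11 of 12 vascular and ependymal genes. Among other neurons, 9 of 10 cortical excitatory, 9 of 11 hypothalamic, 7 of 9 striatal, 7 of 9 habenular and 10 of 13 GABA neuron genes had one. Over the genome, 16628 protein-coding genes had a peak by the same rule. Having a peak therefore does not tell these cell types apart.

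These promoters are shown because their genes are named in the results below, where no promoter peak passed the test. Polg is the gene that carries the mutation, Noc4l and Qtrt1 are promoter peaks with small p in either direction, and Eif2ak3, Atp5b and Cox8a had the highest promoter peaks of their pathway lists. Each line gives the 250 bases before the gene start, 5′ to 3′ on the gene's strand, from RefSeq on GRCm38.p6, the assembly also called mm10. Capitals mark matches on either strand to the motifs described further down.
Polg, chr7:79466274-79466523, minus strand: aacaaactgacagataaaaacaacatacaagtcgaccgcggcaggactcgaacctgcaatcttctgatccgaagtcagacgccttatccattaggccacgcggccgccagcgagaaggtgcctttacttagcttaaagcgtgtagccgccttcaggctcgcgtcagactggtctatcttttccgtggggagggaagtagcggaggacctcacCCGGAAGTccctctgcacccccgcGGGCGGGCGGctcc
Noc4l, chr5:110653383-110653632, minus strand: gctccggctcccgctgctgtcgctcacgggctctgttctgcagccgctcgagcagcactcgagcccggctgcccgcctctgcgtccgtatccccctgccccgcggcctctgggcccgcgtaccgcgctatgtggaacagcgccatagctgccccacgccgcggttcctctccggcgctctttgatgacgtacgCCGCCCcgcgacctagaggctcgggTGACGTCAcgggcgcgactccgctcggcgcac
Qtrt1, chr9:21411587-21411836, plus strand: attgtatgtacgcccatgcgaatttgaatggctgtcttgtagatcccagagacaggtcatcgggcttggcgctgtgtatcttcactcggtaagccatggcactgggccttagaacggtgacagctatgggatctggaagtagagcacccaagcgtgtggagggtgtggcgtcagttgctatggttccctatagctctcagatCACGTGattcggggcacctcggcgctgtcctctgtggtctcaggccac
Eif2ak3, chr6:70844265-70844514, plus strand: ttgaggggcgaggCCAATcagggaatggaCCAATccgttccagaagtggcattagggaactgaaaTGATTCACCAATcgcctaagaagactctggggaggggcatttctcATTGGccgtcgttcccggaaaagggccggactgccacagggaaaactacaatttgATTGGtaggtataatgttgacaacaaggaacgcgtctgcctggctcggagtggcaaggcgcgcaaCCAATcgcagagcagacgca
Atp5b, chr10:128083057-128083306, plus strand: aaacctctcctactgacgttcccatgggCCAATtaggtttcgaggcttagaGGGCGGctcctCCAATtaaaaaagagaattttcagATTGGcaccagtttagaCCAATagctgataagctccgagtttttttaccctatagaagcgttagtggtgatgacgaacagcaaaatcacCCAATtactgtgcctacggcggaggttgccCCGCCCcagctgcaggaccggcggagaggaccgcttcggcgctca
Cox8a, chr19:7217617-7217866, minus strand: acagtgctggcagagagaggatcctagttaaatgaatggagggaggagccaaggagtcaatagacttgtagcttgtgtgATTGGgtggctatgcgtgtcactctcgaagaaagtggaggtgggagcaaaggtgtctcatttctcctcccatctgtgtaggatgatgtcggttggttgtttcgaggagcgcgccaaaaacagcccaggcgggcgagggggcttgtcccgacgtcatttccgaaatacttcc

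ATAC counts were higher in the Polg libraries over the summed peaks of Camk2a, mostly at its start. They were lower at 1 peak in a noncoding gene on chromosome 18, and across the rest of the genome few sites passed the test. As reads of a transgene cannot be told apart from those of the mouse's own copy, the Camk2a result is a difference in counts. Of 87600 peaks tested with edgeR's quasi-likelihood test, 0 rose and 1 fell at an adjusted p under 0.05, a share of 0.00114%, and 2192 peaks had too few counts to be tested. At an unadjusted p under 0.05 there were 2705 higher and 2666 lower peaks, together 6.13% of those tested. Of these 5371 peaks, 1948 were in the lowest of 10 equal groups of peaks by height. Both Polg libraries lay outside the range of the WT libraries at 40.8% of peaks, 17482 higher and 18238 lower. With 2 libraries against 2 of like spread, a share of 0.333 would arise with no difference between genotypes. When counts were summed over all peaks in or within 5000 bp of a protein-coding gene, 2 of 16576 gene sums passed, a share of 0.0121%, and 641 or 3.87% had an unadjusted p under 0.05. These were Camk2a, which was higher, and the predicted locus Gm40363, which was lower. In counts simulated from these libraries with known changes, the peak test called 10% of peaks changed by 4-fold, 54% changed by 8-fold and 78% changed by 16-fold. The gene-sum test called 42% of sums changed by 2-fold and 90% changed by 4-fold, with 9 false calls against 0 for peaks. In the simulation, most changes of single peaks by 4-fold or less were thus missed. Each simulation held 200 changes and gave all peaks or sums of like height the same spread. Rates in the real counts can therefore differ, and the part of depth was not tested.

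**Figure D1:**
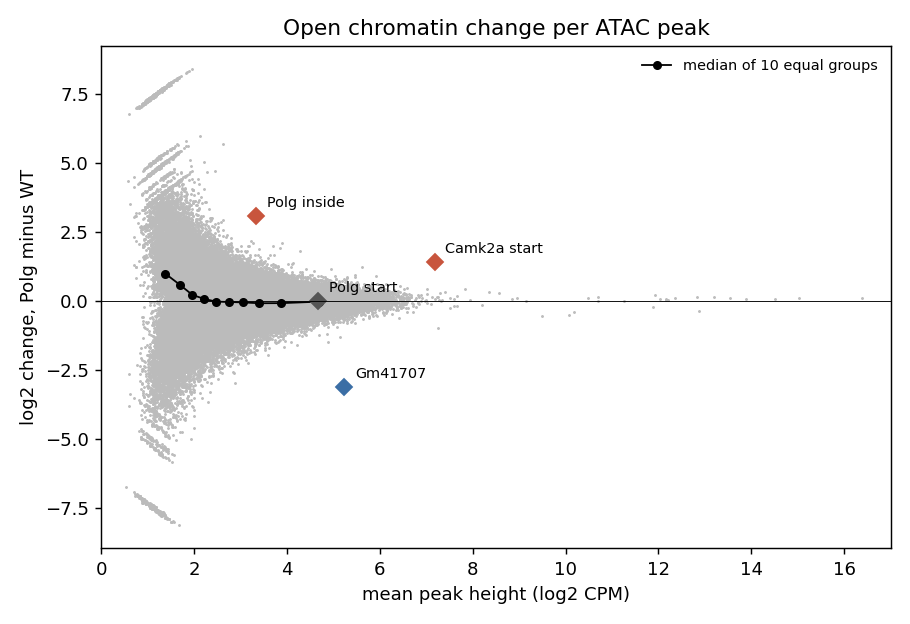
Change of each ATAC peak (log2 of Polg over WT, vertical axis) against its mean height (log2 CPM, horizontal axis), with 1 grey point per tested peak and black points for the median of 10 equal groups of peaks by height. The start peak of Camk2a (1.41) and the peak inside Polg (3.05) lie above the cloud at their height and the Gm41707 peak (-3.14) below it, while the Polg start peak lies at zero.

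Camk2a codes for the alpha subunit of a calcium/calmodulin-dependent kinase that is abundant at excitatory synapses. Its gene sum over 3 peaks was 155 and 110.0 CPM in WT and 308.0 and 332 CPM in Polg. Both Polg libraries were above both WT libraries, with a log2 change of 1.26 (SE 0.172) and an edgeR adjusted p of 1.29e-04. The peak at the gene start, chr18:60925161-60925692, held most of these counts. It had 95.1 and 62.2 CPM in WT and 207 and 213 CPM in Polg, a mean of 78.6 ± 23.2 against 210.1 ± 4.84 (SD, n = 2 each). The log2 change of this peak alone was 1.41 (SE 0.356), with an edgeR p of 0.00111 before and 0.704 after adjustment over all peaks. The 2 other peaks lie inside the gene, at chr18:60977690-60978018 and chr18:60978236-60978558. The first had 12.1 and 3.33 CPM in WT and 9.81 and 9.10 in Polg, and the second 8.74 and 12.6 in WT and 9.30 and 11.4 in Polg. The genotypes overlapped at both. Among the 9 other peaks within 100000 bp of the start peak, log2 changes ran from -0.98 to 0.49 with a median of -0.16.

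Polg, on the minus strand of chromosome 7 from 79446231 to 79467911, had a start peak and a peak inside the gene. The start peak, at chr7:79466096-79466520, had 25.5 and 24.8 CPM in WT and 27.4 and 23.0 CPM in Polg, with a log2 change of -0.0050 (SE 0.324). The inside peak, at chr7:79453797-79454119 and 12315 bp downstream of the start, had 2.87 and 0.741 CPM in WT and 23.2 and 11.8 CPM in Polg. Its counts were 23 and 2 in WT and 90 and 106 in Polg, and the groups did not overlap. The log2 change was 3.05 (SE 0.631), with an edgeR p of 1.78e-04 and an adjusted p of 0.704, and DESeq2 gave an adjusted p of 0.0463 for the same peak, the lowest among its alternatives, which ran up to 0.999. Inside each library, the count of the inside peak was 0.113 and 0.0299 times that of the start peak in WT and 0.849 and 0.512 times in Polg. This ratio does not depend on the scaling between libraries, and it was higher in both Polg libraries than in either WT library. The start peak also overlaps the tRNA gene n-TRtcg5. The gene table used here has no exons, so whether the inside peak is exonic or intronic is not given.

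The peak that fell, at chr18:39868433-39868761, lies in the noncoding gene Gm41707, 92350 bp from the nearest protein-coding start, that of Pabpc2. It had 79.4 and 54.1 CPM in WT and 5.68 and 9.10 CPM in Polg, from counts of 636, 146, 22 and 82. Both WT libraries were far above both Polg libraries. The mean fell from 66.8 ± 17.9 to 7.39 ± 2.42 CPM (SD, n = 2 each), and the log2 change was -3.14 (SE 0.374, edgeR adjusted p = 0.0235). Without the first WT library the log2 change was -2.85 and no longer passed. The 11 other peaks within 100000 bp had log2 changes between -0.91 and 1.12, with a median of -0.10, and the nearest of them, 8172 bp away, had -0.66.

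**Figure D2:**
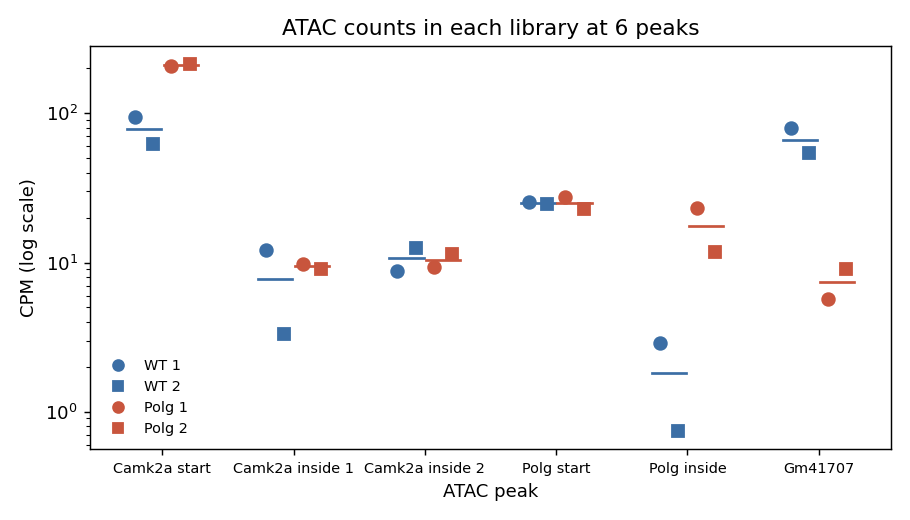
ATAC CPM (log scale) in each of the 4 libraries at 6 peaks, with a short line at the mean of each genotype. WT and Polg libraries separate at the Camk2a start, at the peak inside Polg and at the Gm41707 peak, and they overlap at the Polg start and at both peaks inside Camk2a.

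The Gm40363 sum rests on a single high peak, at chr6:47739662-47740024, past the end of the gene. The sum was 1196 and 1157 CPM in WT and 791 and 843 CPM in Polg, with a log2 change of -0.53 (SE 0.0904) and an edgeR adjusted p of 0.00681. It no longer passed with DESeq2, with voom and quantile normalization (log2 change -0.062), without the first WT library or without either Polg library. The same peak in the fit of single peaks had an edgeR adjusted p of 0.824. The biological coefficient of variation, a measure of spread between libraries, was 0.442 in common over all peaks and 0.216 over all gene sums. Its part in this difference was not tested. Gm40363 lies outside the rule for named genes and was chosen after its value was seen.

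Other sites with small p values did not pass the adjustment, and most were low peaks with counts in 1 genotype. In the gene Chd9, which codes for a chromatin remodeller, the peak at chr8:91006650-91006972 had 1 and 1 counts in WT and 27 and 135 in Polg. The ratio was 67.3, with a 95% counting interval of 18.3 to 560, and DESeq2 gave it an adjusted p of 0.0463, beside 0.053 to 0.999 under the other alternatives. The peak at chr8:46803506-46803828 in Irf2, an interferon regulatory factor, had 0 counts in both WT libraries and 41 and 28 in Polg. Against a floor of 3 counts over the WT group, it was at least 19.1-fold higher. The peak at chr12:111204072-111204394 in Traf3, a signalling adaptor, had 0 counts in WT and 48 and 19 in Polg. The lower peaks in Top1, a DNA topoisomerase, and in Stxbp6, which binds the vesicle fusion machinery, had counts in every library. In Top1, at chr2:160701644-160701972, CPM were 14.1 and 11.1 in WT and 0.517 and 2.33 in Polg. In Stxbp6, at chr12:44896399-44896867, they were 26.0 and 29.3 in WT and 10.6 and 7.77 in Polg, a log2 change of -1.60 (SE 0.376). Between genes, a peak 200319 bp from the nearest start, that of Hand2, had 40 and 19 counts in WT and 0 in Polg. Another, 124253 bp from the start of Mbip, had 38 and 17 counts in WT and 0 in Polg. These intervals and floors cover counting error only.

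Gene sums that came next behaved likewise. The sums for Pou5f1, Gfi1b, Olfr557 and Tbx15 were higher in Polg and those for Olfr96, Mmrn1, Ccnb3 and Foxr1 were lower, each from 1 or 2 low peaks, and 0 of these 8 passed. Pou5f1, a pluripotency factor, had 0 and 1 counts in WT and 44 and 40 in Polg. Wdsub1 had counts in all libraries, with 112 and 78.1 CPM in WT and 52.9 and 49.3 CPM in Polg, a log2 change of -0.91 (SE 0.250) and an edgeR adjusted p of 0.752. Its difference came from 2 peaks inside the gene (log2 changes of -1.49 and -2.24), while its promoter peak changed by 0.0099.

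At gene starts no peak passed the test. Of 14436 tested promoter peaks, which lie within 1000 bp of a protein-coding start, 0 passed (0%), and 156 higher and 234 lower peaks had an unadjusted p under 0.05. DESeq2 also called 0, and limma's voom with quantile normalization called 1, the Camk2a start. The median log2 change of promoter peaks was -0.018 with an interquartile range from -0.29 to 0.25. For peaks inside genes the range was -0.57 to 0.60, and for those between genes -0.53 to 0.68. After Camk2a, the higher promoter peaks of smallest p were those of Acnat1, Spon1, Pik3cg and Noc4l. Noc4l, which acts in ribosome assembly and shares its start region with Ddx51, had 3.50 and 3.33 CPM in WT and 15.2 and 12.1 CPM in Polg, a log2 change of 1.98 (SE 0.550). Spon1, which codes for a secreted matrix protein, had 2.75 and 4.44 CPM in WT and 10.1 and 19.3 in Polg. The lower ones were at Pdyn, Cbln1, Olfr96, Qtrt1 and Olfr172. Pdyn, the precursor of the dynorphin peptides, had 4.62 and 13.7 CPM in WT and 0.517 and 0.777 in Polg, and Cbln1, a secreted synapse organiser, had 6.25 and 8.15 in WT and 0.258 and 0.444 in Polg. Qtrt1, a tRNA-modifying enzyme, was the highest of the lower ones, with 34.3 and 37.4 CPM in WT and 13.9 and 16.3 in Polg, a log2 change of -1.23 (SE 0.328). Their adjusted p was 0.704 in each case.

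The median change of peaks varied with their height. In the lowest of 10 equal groups of peaks the median log2 change was 0.98 with an interquartile range of 3.71, and in the highest group it was -0.039 with a range of 0.412. Over the lower 30% of peaks the median was 0.48 and over the upper 70% it was -0.055. Among peaks with 0 counts in both libraries of a genotype and at least 10 in both of the other, 284 were present in Polg and 92 in WT. With 1 WT and 1 Polg library at 0 and the others at 10 or more, there were 36 peaks for the 2 shallower libraries (WT 2 and Polg 1) and 2, 0 and 5 for the other pairs. The second Polg library, the deepest, had 1.19% of all peaks at 0 and the other libraries 2.23% to 2.49%. The part of depth in these counts was not tested.

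H3K27ac gave a second readout from other libraries, 2 WT and 2 Polg per brain region, labelled C57BL/6 and also sorted on NeuN. Each brain region has its own H3K27ac peaks, read here where they overlap an ATAC peak. Their bounds differ between regions, so CPM of different regions do not cover the same stretch. The regions were PVT, nucleus accumbens (NAC), cortex (COR) and the caudate putamen (CP). Over the peak inside Polg, PVT acetylation was 3.77 and 4.57 CPM in WT and 13.3 and 14.6 CPM in Polg. The groups did not overlap, with a log2 change of 1.74 (SE 0.468) and an edgeR p of 0.00998, which was 0.556 after adjustment over all PVT H3K27ac peaks. DESeq2 gave an adjusted p of 5.82e-05 for it, and the edgeR alternatives gave 0.397 to 0.973. Over the Polg start, PVT acetylation was 2.47 and 2.77 CPM in WT and 2.80 and 7.15 in Polg. In COR the start had 8.69 and 32.9 CPM in WT and 2.03 and 0 in Polg, a log2 change of -4.36 (SE 2.60, edgeR adjusted p = 0.779) in the opposite direction, and CP and NAC had no H3K27ac peak there. In CP the inside peak had 47.3 and 15.3 CPM in WT and 57.6 and 110 in Polg, and in COR 0.0112 and 14.9 in WT and 22.01 and 41.4 in Polg. In NAC 3 of the 4 libraries were at 0 there and the second Polg library had 12.95 CPM.

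The Camk2a start had no H3K27ac peak in the PVT table and a peak in each of the other 3. These peaks were wider than the ATAC peak. They covered chr18:60917694-60939410 in COR, chr18:60917781-60931609 in NAC and chr18:60924212-60927889 in CP. In NAC it had 241 and 159 CPM in WT and 697 and 789 CPM in Polg, a log2 change of 1.89 (SE 0.322) with an edgeR adjusted p of 2.14e-04. In COR it had 339 and 169 CPM in WT and 531 and 624 in Polg, a log2 change of 1.19 (adjusted p = 0.535). In CP it had 139 and 5.62 CPM in WT and 232 and 243 in Polg, a log2 change of 1.72 (adjusted p = 0.66). Both Polg libraries were above both WT libraries in each of these regions. Whether the size of the change differs between regions was not tested. Over the Gm41707 peak PVT acetylation was 56.6 and 48.1 CPM in WT and 43.0 and 38.4 in Polg, a log2 change of -0.36 (SE 0.232) with an edgeR p of 0.169.

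**Figure D3:**
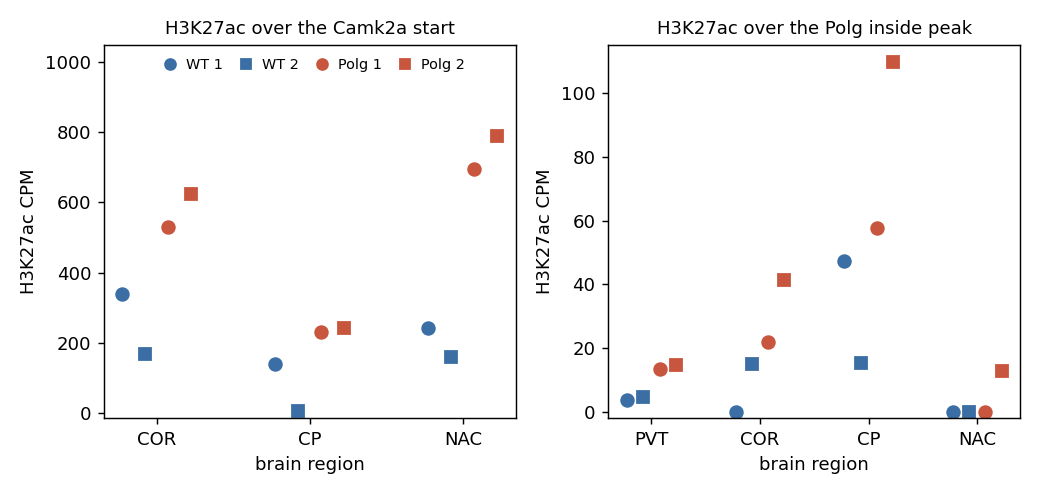
H3K27ac CPM in each library by brain region, over the Camk2a start (left, 3 regions with a peak) and over the peak inside Polg (right, 4 regions), with the same symbols for WT and Polg libraries. Polg libraries lie above WT libraries at the Camk2a start in each region shown. They had 531 and 624 against 339 and 169 in COR and 697 and 789 against 241 and 159 in NAC. The H3K27ac peak has different bounds in each region.

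Across open sites with a PVT H3K27ac peak, changes in the 2 readouts were nearly uncorrelated. Over 37975 ATAC peaks with a PVT H3K27ac peak, Pearson's r between the log2 changes was 0.0176 and Spearman's rho 0.0316, and 51.7% had the same sign. Points that share an H3K27ac peak or a library are not independent, and these values are a description. The biological coefficient of variation was 1.06 for PVT H3K27ac and 0.442 for ATAC peaks. The part of this spread between libraries in the low correlation was not tested. Over the 9908 promoter peaks, r was -0.0044. Of the 32107 tested H3K27ac peaks over ATAC peaks, edgeR called 0 (0%), with 1578 at an unadjusted p under 0.05, while DESeq2 called 1907, of which 996 were higher. Open sites outside promoters with acetylation had a median ATAC change of -0.086 and those without 0.093. Those sites also differ in height, with medians of 2.93 and 2.14 log2 CPM, and the part of height in this gap was not tested.

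**Figure D4:**
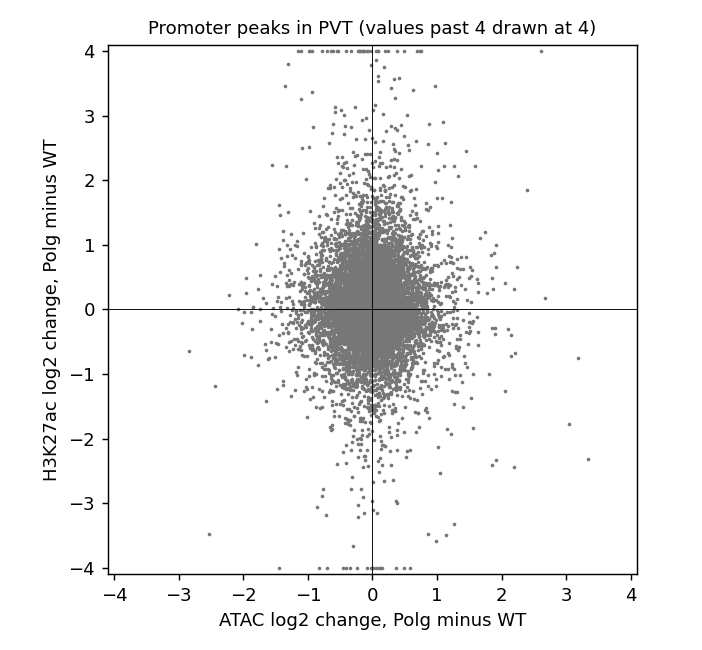
Log2 change of H3K27ac (vertical axis) against that of ATAC (horizontal axis), Polg minus WT, for the 9908 promoter peaks with both readouts in PVT, with values past 4 drawn at 4. The points form a cloud around zero with no slope (r = -0.0044).

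Letter matches in promoters were described over 21263 windows from 250 bases before to 50 after each start, of which 10401 overlapped an ATAC peak. Motifs were searched on both strands: GGGCGG (SP factors), CCAAT (NF-Y), CCGGAAGT (ETS factors), TGACGTCA (CREB), CACGTG (E-box, which clock factors bind), TGANTCA (AP-1), TGATGNAA (the response element of ATF4) and the palindrome of NRF1, a regulator of mitochondrial genes, and the YY1 motif. GGGCGG was present in 46.2% of all windows and 68.9% of open ones, CCGGAAGT in 5.15% and 9.25%, and the NRF1 motif in 1.33% and 2.43%. TGANTCA was less common in open windows, with 3.93% against 6.99% of all. The median log2 change of peaks over windows with each motif lay between -0.066 (TGACGTCA) and 0.012 (NRF1), beside -0.021 for all windows. In the sequences above, the Polg promoter held 1 match to CCGGAAGT, 38 bases before the start, and 2 overlapping matches to GGGCGG. Eif2ak3, which codes for the stress kinase PERK, held 6 matches to CCAAT and 1 to TGANTCA, Atp5b, a subunit of ATP synthase, held 5 to CCAAT and 2 to GGGCGG, and Qtrt1 held 1 to CACGTG. These are letter matches and not binding sites.

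Gene lists were read by counts and medians beside all peaks, whose median log2 change was -0.0024. There were 26 lists, 11 of cell type markers and 15 of pathways, and 411 of their 434 genes had a peak. Of their gene sums, 1 passed, Camk2a itself in the list of Camk2 kinases. Medians over peaks of a list ran from -0.23 for the circadian clock to 0.26 for GABA neurons, with 9 lists above zero and 17 below. Lists differed in height, with mean log2 CPM in WT of 3.70 and 3.55 for the circadian clock and 2.12 and 2.40 for GABA neurons. The median change of all peaks varied with height, and the part of height in list medians was not tested. Over the alternatives tried for lists (each library left out, total counts only, promoter peaks only), the median kept its sign for mitochondrial DNA replication, mitophagy, GABA neurons, astrocytes, the circadian clock, ion channels, bipolar disorder association genes and p53 targets, and changed sign for every other list.

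Genes of mitochondrial DNA replication and transcription had a median of 0.20 over 38 peaks. Of 19 gene sums, 7 lay higher in both Polg libraries without overlap and 0 lower, beside 31.9% of all gene sums in either direction. Polg itself belongs to this list: its sum is among the 7 and the peak inside it among the 38. Ssbp1, which coats single-stranded mitochondrial DNA, had 16.4 and 14.6 CPM in WT and 26.8 and 22.5 in Polg. Polrmt, the mitochondrial RNA polymerase, had 37.8 and 30.2 in WT and 50.04 and 46.1 in Polg. Neither passed, and without the first WT library or the second the list's median was 0.45 or 0.066. Complex IV genes, which code for or assemble cytochrome c oxidase, had a median of 0.094 over 38 peaks, but -0.033 over promoter peaks and -0.045 over gene sums, and 3 of 18 sums were higher without overlap and 0 lower. The Cox8a promoter had 31.0 and 45.2 CPM in WT and 25.6 and 32.4 in Polg. Genes of the other respiratory complexes had a median of -0.036, and Uqcrc2 of complex III had 42.2 and 46.8 CPM in WT and 33.8 and 16.5 in Polg. Mitophagy, fission and fusion genes had a median of 0.13.

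Stress lists stayed near the median of all peaks, with -0.024 for the integrated stress response and -0.079 for the unfolded protein and heat shock response. The promoter of Eif2ak3 had 107 and 82.6 CPM in WT and 109 and 74.0 in Polg, so the genotypes overlapped. Circadian clock genes had a median of -0.23 over 82 peaks, with 0 of 18 gene sums higher and 8 lower without overlap, beside 2638 higher and 2654 lower of all 16576 gene sums (31.9% in either direction). Npas2, a partner of the clock activator, had 241 and 223 CPM in WT and 182 and 175 in Polg, and Dbp, a clock output factor, had 141 and 145 in WT and 115 and 110 in Polg. The list's median stayed between -0.29 and -0.15 without each library in turn, with total counts only and with promoter peaks only. None of the 18 sums passed, and 1 had an unadjusted p under 0.05.

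Ion channel genes had a median of -0.18, which ran from -0.30 to -0.050 over the alternatives. Without overlap, 4 of 28 sums were higher and 10 lower, beside the 31.9% of all gene sums in either direction. Glutamate and GABA receptor genes had a median of -0.084, which ran from -0.14 to 0.048 and so changed sign, with 5 higher and 4 lower of 31 sums, a share no greater than that of all gene sums. Grin2b, a subunit of the NMDA receptor, had over its 25 peaks 328 and 318 CPM in WT and 229 and 240 in Polg, a log2 change of -0.46 (SE 0.147) with an edgeR p of 0.0033 and an adjusted p of 0.948. Synaptic vesicle genes had a median of -0.071 and bipolar disorder association genes -0.055. Activity-regulated genes had a median of -0.060, and the promoter of Egr1 had 74.3 and 65.2 CPM in WT and 57.6 and 82.4 in Polg.

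Medians of the marker lists lay on both sides of zero. The median was -0.086 for PVT and midline thalamus and -0.059 for pan-neuronal genes, and both changed sign over the alternatives (-0.28 to 0.14 and -0.17 to 0.061). Calb2, the calretinin gene and a marker of the PVT, had 59.8 and 51.5 CPM in WT and 35.9 and 37.0 in Polg, a log2 change of -0.62. Esr1, the oestrogen receptor alpha, had 29.0 and 47.4 in WT and 57.1 and 70.7 in Polg, a log2 change of 0.79. Both had an edgeR adjusted p of 1. Over the 14 tested peaks of GABA neuron genes the median was 0.26, and Gad1, which makes GABA, had 16.2 and 14.6 CPM in WT and 21.1 and 22.05 in Polg. Of 10 GABA neuron gene sums, only 1 was higher and 0 were lower without overlap, beside 31.9% of all gene sums in either direction. Astrocyte genes had a median of -0.20 over 19 peaks, which ran from -1.69 with promoter peaks only to -0.038 without the second Polg library. The list has only 3 promoter peaks, and the -1.69 is the value of the Slc1a3 promoter peak described below. Of 8 astrocyte sums, 0 were higher and 3 lower without overlap, a share near the 31.9% of all gene sums in either direction. The mean log2 CPM of the list's peaks was 2.93 and 3.11 in WT and 2.73 and 2.68 in Polg. Microglial genes had a median of -0.16 over 11 peaks (-0.30 to 0.010 over the alternatives), with means of 2.98 and 2.90 in WT and 2.53 and 2.77 in Polg. The part of glial nuclei in the other results was not tested. Slc1a3, the glial glutamate transporter, had promoter CPM of 4.87 and 19.3 in WT and 3.36 and 3.77 in Polg, where only the second WT library was high. List genes other than Camk2a that do not carry the highest promoter peak of their list were named after their values were seen.

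**Figure D5:**
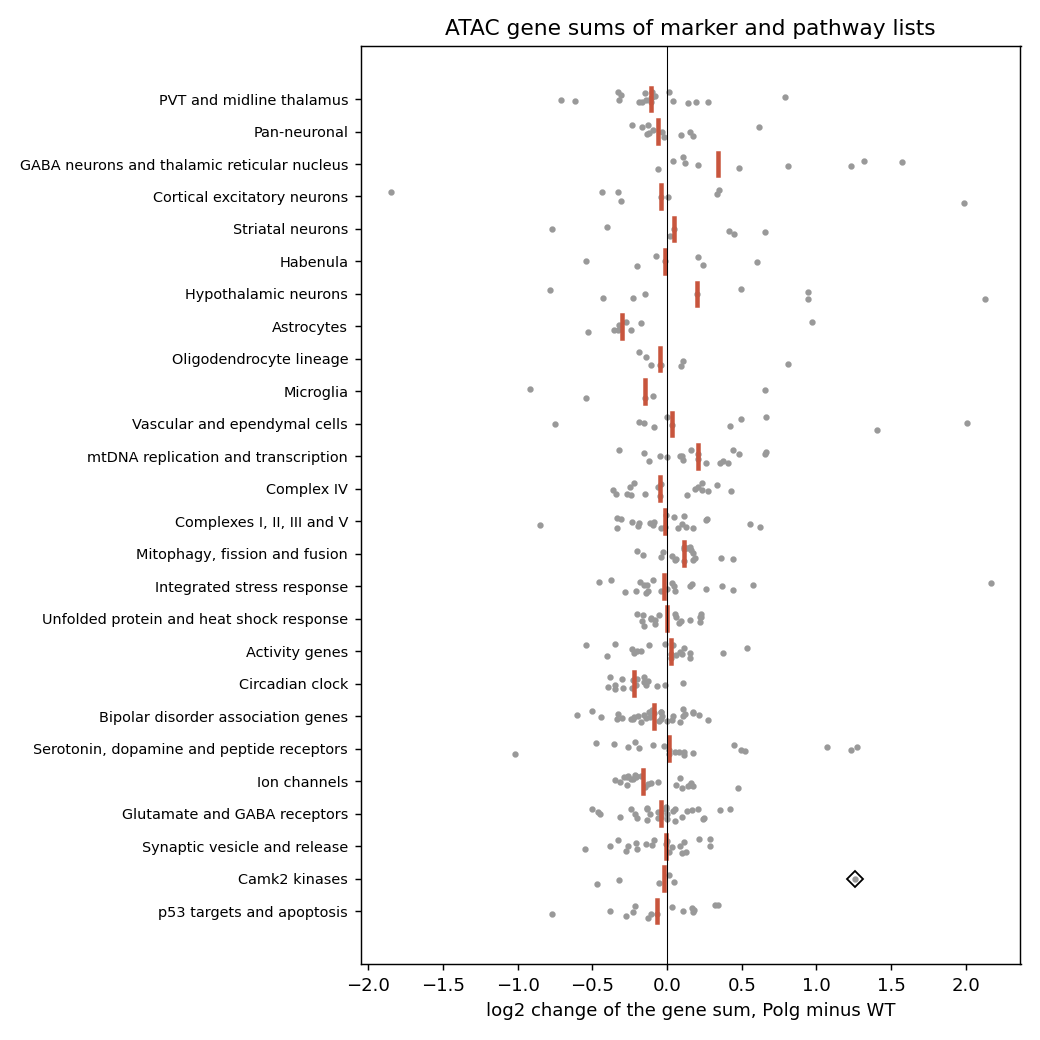
Log2 change of the ATAC gene sum, Polg minus WT, for each gene (grey points) of 26 lists, with a red bar at the list's median over genes. Bars lie close to zero, lowest for astrocytes and the circadian clock and highest for GABA neurons, and the open diamond marks Camk2a (1.26).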

How the data were processed

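ATAC-seq counts came from 2 WT and 2 Polg PVT libraries, and H3K27ac counts from 2 and 2 libraries per brain region. The H3K27ac counts are over H3K27ac peaks that overlap an ATAC peak, not over the ATAC peaks themselves. The deposited tables hold raw read counts per merged peak, with 1 peak set per table, per the file headers. The tools in the submitters' processing notes are DESeq2, featureCounts (Subread), HOMER and STAR, on mm10, without versions or roles. For peak threshold, duplicate removal and read shifting, the setting is not given in the sources used here.

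For the tests, each table was fitted alone with edgeR 4.0.16 (R 4.3.3): TMM scaling, edgeR's filter on low counts, robust quasi-likelihood test, Benjamini-Hochberg adjustment over all tested peaks or genes, 2-sided, threshold 0.05, and 2 residual degrees of freedom. The test also shares spread over peaks or genes, with a median of 14.2 prior degrees of freedom in the ATAC peak fit. CPM use TMM-scaled library sizes. Peaks were placed with GenomicRanges 1.54.1 on RefSeq tables of GRCm38.p6; where a gene had no start in the promoter table, either gene end was used. Gene sums add peaks in a gene or within 5000 bp of it, and a peak near several genes counts for each. Alternatives used DESeq2 1.42.0 and limma 3.58.1. The tests were tested on simulated data.

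The rule for named genes took all peaks of Polg and Camk2a, the peaks and gene sums of smallest p in each direction (up to 10 that passed, otherwise filled up to 5, predicted loci left out of gene sums), 5 promoter peaks per direction, and the highest promoter peak and passing members of each list. The samples, lists and rule were chosen with earlier results of these data known. RNA tables were not used here.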

Additional observations from a re-analysis of the deposited data

How the results depend on the processing

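The number of ATAC peaks that passed was 1 as reported and stayed 1 with DESeq2 size factors, total counts, no filter, 10 counts in all 4 libraries, autosomes only and, as a setting chosen after seeing the data, without the 17 highest peaks. It was 3 with DESeq2's Wald test (2 higher), 2 with the replicate block (1 higher) and 11 with limma's voom and quantile normalization (7 higher), and 0 (without the first WT library) to 4 (without the first Polg library) when each library was left out in turn. Gene sums passing were 2 as reported, 1 with DESeq2, 1 with the replicate block, 1 with voom and quantile normalization, 1 with the gene body only, and 1 to 19 without each library in turn (19 without the second Polg library, 9 without the first). Camk2a passed in each of these, with log2 changes from 1.05 to 1.54. Promoter peaks passing were 0 except 1 with the replicate block and 1 with voom, in both cases the Camk2a start. Most of the 11 ATAC peaks called with voom were among the 17 highest peaks. So were all of its 7 higher ones except the Camk2a start. For H3K27ac over ATAC peaks, the count was 0 with edgeR under each setting and 1907 with DESeq2. The cause of these differences was not tested. The numbers of the libraries share no label that pairs them, and the deviations of same-numbered libraries had a correlation of -0.051.

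Of 35 named peaks and gene sums, 3 changed sign, with reported log2 changes between -0.011 and 0.21. The Polg start peak was 0.015 with DESeq2 size factors, 0.012 with DESeq2, 0.067 with 10 counts in all libraries, -0.13 to 0.13 without each library in turn, 0.039 with voom, 0.00033 on autosomes only and 0.018 without the 17 highest peaks. The first peak inside Camk2a was -0.35 without the second WT library, and up to 1.48 without the first. The second was 0.0056 with DESeq2 size factors, 0.032 with total counts, 0.011 with DESeq2, 0.071 with 10 counts in all libraries, -0.29 to 0.26 without each library in turn, 0.17 with voom and 0.011 without the 17 highest peaks. The Gm40363 sum no longer passed with DESeq2, the replicate block or voom (log2 change -0.062), nor without the first WT library or either Polg library. Medians of lists moved by more than the spread between libraries in 41 of 156 recalculations. With 2 libraries per genotype, leaving 1 out assumes that the lone library varies like the others.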
